A study of Mus musculus with 12 samples.

Results

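The data ask whether the liver responds to the pentapeptide IIAEK in the same way with and without the intestinal alkaline phosphatase gene Akp3. The quantity is a difference of differences for each gene: the change with IIAEK in Akp3 knockout mice (IIAEK minus vehicle) minus the change with IIAEK in wild-type mice. It was taken from all 12 of the 12 arrays in the series, chosen by their titles, and was tested for 26397 genes. Liver RNA came from male mice, given as 7 weeks old, in 4 groups of 3 arrays. Wild-type and Akp3-/- mice (named IAP-KO in the labels) received by mouth, once a day for 14 days, either IIAEK at 600 mg per kg of body weight or the vehicle alone, carboxymethylcellulose sodium at 5 g/L. Food was withheld for 8 h ahead of liver collection. The labels name no strain, and do not say whether wild-type and knockout mice were littermates or whether an array holds the RNA of 1 mouse. The p-values therefore measure the spread between these arrays only. The labels name no tissue-specific deletion, and Akp3 is known as a gene of the gut, so the liver is read here at a distance from the site of its use.

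IIAEK is a peptide released from the milk protein beta-lactoglobulin by digestion, and it is known for lowering serum cholesterol in rodents. Intestinal alkaline phosphatase sits on the brush border of the small intestine, where it removes phosphate groups from bacterial endotoxin and nucleotides and takes part in fat uptake. Signals from the gut reach the liver in portal blood as bile acids, endotoxin, lipids and nutrients. In hepatocytes the nuclear receptors FXR, LXR, PXR, CAR and PPARalpha turn such signals into changes of bile acid, sterol, drug and fatty acid genes.

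Values are log2 signals of single-colour microarrays, with each array's 75th percentile set to 0, so a difference of 1 is a doubling. The deleted gene gave no label check in this tissue. Akp3 was not well above background on any of the 12 arrays, nor was Alppl2, and Alpi was above it on 1. These 3 phosphatase genes were not tested. Alpl, the alkaline phosphatase of liver and bone, was measured on all arrays. The 12 hepatocyte markers were well above background on every array, and their median level, set against their mean over the arrays, ran from -0.45 to 0.43. Between 56.8% and 61.9% of probes were well above background on an array and no spot was saturated. Slide 1 held the 4 arrays of replicate 1 and slide 2 the 8 arrays of replicates 2 and 3, each slide with its own scan day. The first principal component of the levels held 55.4% of their variance. Wild-type vehicle 2 and 3 and knockout vehicle 1 and 3 stood at 74.2 to 88.2 on it and are called the 4 outlying vehicle arrays here. The name gives their place on this axis only, since they are 2 of the 3 arrays in each vehicle group. Leaving them out keeps wild-type vehicle 1, on slide 1, and knockout vehicle 2, on slide 2. Values without them thus rest on 1 vehicle array per genotype. The other 8 arrays stood at -57.4 to -11.3, among them wild-type vehicle 1 at -57.4 and knockout vehicle 2 at -36.7. On slide 1 the wild-type change along this axis was 3.3 and the knockout change -103.8, and on slide 2 they were -126.4 and -50.4. The difference between genotypes along it was therefore -107.1 on slide 1 and 76.0 on slide 2. A gene that follows this axis would turn its sign between the slides, so slide values are given for the main genes and lists. Of the 84 named genes, 24 had the opposite direction on slide 1 alone.

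No gene had an IIAEK change that differed between the genotypes at an adjusted p under 0.05 (0 of 26397, 0.0%, limma with Benjamini-Hochberg adjustment over all genes). The smallest adjusted p in limma was 0.473, for Gadd45g. At an unadjusted p under 0.05 there were 413 genes (1.56% of those tested), 238 with the knockout change higher (0.902%) and 175 with it lower (0.663%). This is a smaller share than the threshold of 0.05 would pass if no gene differed and p-values were evenly spread. The shares of 0.902% and 0.663% set beside list counts below are parts of this low share. Of the 413, 231 were probes without a gene symbol, against 11073 of all 26397. The median difference over all genes was 0.007, and 51.3% of the genes had a higher change in the knockout. The 5th and 95th percentiles were -0.47 and 0.61, and 695 genes (2.63%) differed by at least 1 in either direction.

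The precision of these differences set what could be seen. The median standard error was 0.329, with 5th and 95th percentiles of 0.199 and 0.872, and the median 95% interval reached 0.73 to either side. For 14980 genes (56.7%) the whole interval lay between -1 and 1, so that a difference of more than a doubling lay outside it. For the other genes this number of arrays did not set such a bound.

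The changes with IIAEK went the same way in both genotypes for 77.3% of the genes, and their correlation across genes was 0.749. Genes are not independent replicates, and the wild-type and knockout changes share no array. Both changes reached 1 in the same direction for 824 genes and in opposite directions for 10. The correlation was 0.675 on slide 2, 0.085 on slide 1 and -0.026 when the 4 outlying vehicle arrays were left out. The slide 1 value rests on 1 array per group, and the last on 1 vehicle array per genotype. Without wild-type vehicle 1 the correlation was 0.80, without knockout vehicle 2 it was 0.81, and without both 0.862. The part of the axis described above in these values was not tested.

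**Figure D1:**
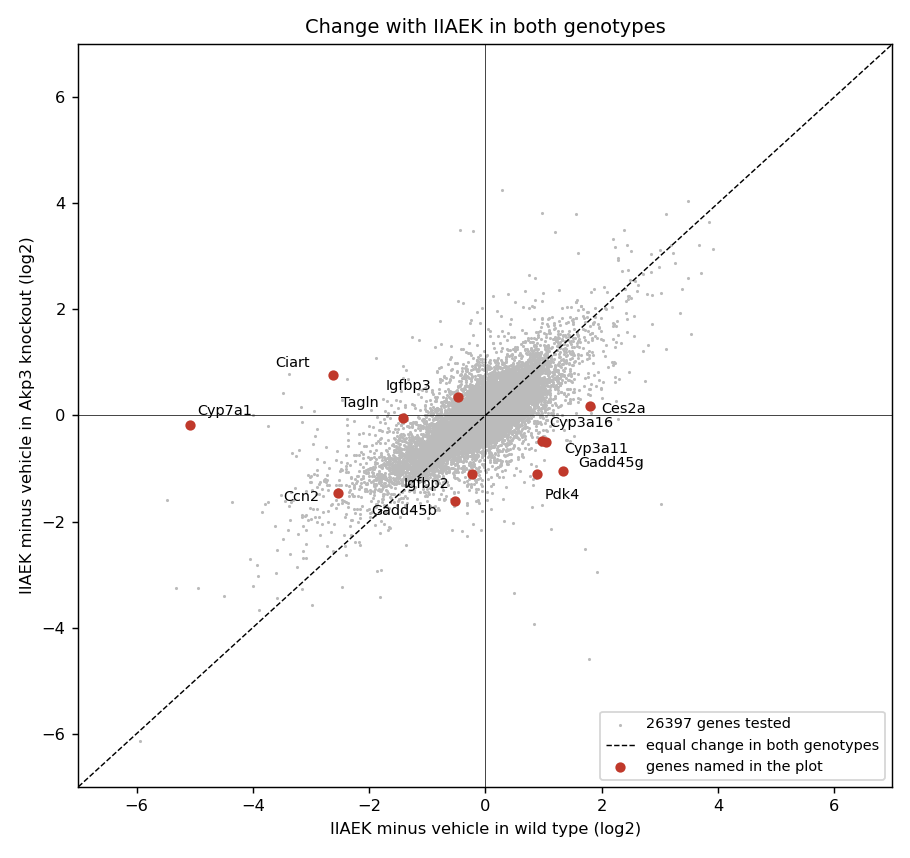
The IIAEK minus vehicle difference (log2) in wild type, on the horizontal axis, is plotted against that in the Akp3 knockout, on the vertical axis, with 1 point for each of the 26397 genes tested. The correlation is 0.749, the dashed line marks equal change, and the named genes lie off that line. Gadd45g, Cyp3a11 and Cyp3a16 lie to the lower right, where IIAEK is higher in wild type and lower in the knockout.

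Another view asks for groups that do not overlap at all. The lowest wild-type IIAEK array stood above the highest wild-type vehicle array, while every knockout IIAEK array stood below every knockout vehicle array, for 20 genes (0.0758% of those tested). The reverse pattern, lower with IIAEK in wild type and higher in the knockout, was seen for 14 genes (0.053%). Gadd45g, Cyp3a11, Cyp3a16, Cyp3a59, Cpt1b and Gm14488 were among the 20, and Zmynd10, Pik3r1 and Igfbp3 among the 14. Some gaps were narrow. Cyp3a59 stood at 6.93 on wild-type vehicle 2 and 6.96 on wild-type IIAEK 2, and Igfbp3 at 3.30 on wild-type vehicle 1 and 3.27 on wild-type IIAEK 1. With 3 arrays per group such patterns also arise with no difference, and the counts were not tested against that.

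Gadd45g gave the smallest p-value. It encodes a small stress-induced protein that acts in growth arrest and in signalling to p38 and JNK kinases. On the wild-type vehicle arrays its level was 3.80, 4.03 and 4.46, and on the wild-type IIAEK arrays 5.49, 5.23 and 5.58. On the knockout vehicle arrays it was 5.35, 5.49 and 4.75, and on the knockout IIAEK arrays 4.33, 4.15 and 3.98. The knockout vehicle level thus lay near that of the wild-type IIAEK group, and the knockout IIAEK level near that of the wild-type vehicle group, with no overlap between vehicle and IIAEK in either genotype. The mean was 2.52-fold higher with IIAEK in wild type and 2.06-fold lower in the knockout. The difference was -2.38 (SE 0.33, 95% interval -3.10 to -1.66, unadjusted p = 1.79e-05, adjusted p = 0.473 in limma). It was -2.71 on slide 1, with 1 array per group, and -2.21 on slide 2. Both slides enter the p-value by which the gene was picked, and the part of the axis that separated the vehicle arrays was not tested. Leaving out each array in turn gave -2.60 to -2.23.

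The other members of the family were measured by 1 probe each. Gadd45b stood at 0.60, 1.17 and 1.29 on the wild-type vehicle arrays and at 0.01, 0.57 and 0.88 on the wild-type IIAEK arrays. Its knockout vehicle levels were 1.33, 0.27 and 1.06 and its knockout IIAEK levels -0.55, -0.72 and -0.90. Only the knockout groups were separate, and the difference was -1.07 (SE 0.43, unadjusted p = 0.0315, adjusted p = 1.0 in limma), with -1.29 on slide 1 and -0.97 on slide 2. Gadd45a had a difference of 0.22 (SE 0.82), which was -0.95 on slide 1 and 0.80 on slide 2.

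The promoters of 4 named genes of the stress, drug and clock groups are shown, since these have the smallest p-values of their groups or, for Gadd45b, belong to the family of Gadd45g. They are RefSeq sequences of mouse build GRCm38.p6 from 250 bases before to 50 bases after the annotated start, 5′ to 3′ on the gene's strand. Capitals in Gadd45g (chr13:51846425-51846724, plus strand), Gadd45b (chr10:80929841-80930140, plus strand) and Ciart (chr3:95882179-95882478, minus strand) mark the E-box CACGTG, a motif of clock and growth regulators. Capitals in Cyp3a11 (chr5:145879805-145880104, minus strand) mark TGAACT, the reverse of the nuclear receptor half-site AGTTCA.
Gadd45g: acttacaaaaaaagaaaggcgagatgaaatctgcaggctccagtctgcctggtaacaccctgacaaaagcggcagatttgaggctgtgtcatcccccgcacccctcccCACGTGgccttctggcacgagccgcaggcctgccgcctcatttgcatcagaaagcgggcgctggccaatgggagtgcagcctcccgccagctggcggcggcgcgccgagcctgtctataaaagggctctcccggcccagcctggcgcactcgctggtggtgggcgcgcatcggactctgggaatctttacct
Gadd45b: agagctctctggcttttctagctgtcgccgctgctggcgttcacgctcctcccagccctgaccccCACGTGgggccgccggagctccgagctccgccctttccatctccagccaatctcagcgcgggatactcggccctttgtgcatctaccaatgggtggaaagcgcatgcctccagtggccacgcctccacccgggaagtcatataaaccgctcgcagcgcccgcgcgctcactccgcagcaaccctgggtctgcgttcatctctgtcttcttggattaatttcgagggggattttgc
Ciart: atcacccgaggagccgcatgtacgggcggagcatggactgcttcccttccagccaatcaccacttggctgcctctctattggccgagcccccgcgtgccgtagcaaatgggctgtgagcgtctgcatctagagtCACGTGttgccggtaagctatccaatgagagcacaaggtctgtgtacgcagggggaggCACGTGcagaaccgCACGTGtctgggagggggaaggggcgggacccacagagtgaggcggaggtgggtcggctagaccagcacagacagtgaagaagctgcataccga
Cyp3a11: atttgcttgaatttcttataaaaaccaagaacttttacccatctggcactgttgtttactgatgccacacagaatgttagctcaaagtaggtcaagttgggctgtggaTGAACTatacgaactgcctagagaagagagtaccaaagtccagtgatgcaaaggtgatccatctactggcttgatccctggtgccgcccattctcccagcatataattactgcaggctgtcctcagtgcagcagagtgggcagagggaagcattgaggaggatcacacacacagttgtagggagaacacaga

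Counted from the annotated start, the E-box began at -142 in Gadd45g, at -185 in Gadd45b, and at -116, -58 and -44 in Ciart. Of 32851 mouse promoters of this length, 7.15% held CACGTG, which reads the same on both strands. The half-site AGTTCA or its reverse was in 13.99% of them and once in Cyp3a11, at -142, and these letters were not in the same window of Cyp3a16 or Cyp3a59. The cAMP response element TGACGTCA, held by 1.79% of promoters, was in none of these 6 windows. The glucocorticoid receptor half-site AGAACA or its reverse TGTTCT, held by 18.97%, was found once each in Cyp3a11 (at 40), Cyp3a16 (at 44) and Cyp3a59 (at -207). The sites found did not overlap each other, and a match is a description of sequence only.

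Genes of drug metabolism under CAR and PXR, the receptors that sense foreign compounds and bile acids, had lower changes in the knockout for 24 of the 26 tested members, with a median difference of -0.77 against 0.007 over all genes. Their median change with IIAEK was 0.69 in wild type and -0.01 in the knockout. Of the 26, 6 had an unadjusted p under 0.05 with the knockout lower, against 0.663% of all genes in that direction, and 0 had one with it higher. None passed the adjusted threshold. On slide 1 the median was -0.39 with 17 of 26 lower, and on slide 2 it was -0.67 with 22 lower. Without knockout vehicle 2 it was -0.44. The 6 other listed genes were not measured well enough to be tested. Many members are related genes of the Cyp3a, Cyp2c, Gsta and Gstm families, so the counts are not of independent members.

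Cyp3a11, Cyp3a16 and Cyp3a59 had the 3 smallest p-values of this group, and the other Cyp3a genes of the list are not described. Cyp3a11 encodes the main CYP3A oxidase of mouse liver and is the textbook target of PXR. Its level was 7.16, 7.80 and 7.14 on the wild-type vehicle arrays and 8.80, 7.97 and 8.46 on the wild-type IIAEK arrays. In the knockout it was 7.97, 8.25 and 7.87 with vehicle and 7.73, 7.54 and 7.29 with IIAEK. Vehicle and IIAEK did not overlap in either genotype, and the direction was opposite. The difference was -1.55 (SE 0.35, 95% interval -2.33 to -0.77, unadjusted p = 0.00113, adjusted p = 1.0 in limma), with -1.88 on slide 1 and -1.39 on slide 2. Cyp3a16 and Cyp3a59 lie near Cyp3a11 on chromosome 5. Cyp3a16 was 1.96-fold higher with IIAEK in wild type and 1.41-fold lower in the knockout, a difference of -1.46 (SE 0.35) with -1.90 and -1.24 on the slides. Cyp3a59 was 1.86-fold higher and 1.32-fold lower, a difference of -1.30 (SE 0.38) with -1.42 and -1.24. Cyp3a genes are close copies of each other, so signal shared between their probes was not separated and the 3 values are not independent. Cyp2c55, a member of another cytochrome family, had a difference of -2.53 (SE 1.01, unadjusted p = 0.0298; -3.87 on slide 1 and -1.86 on slide 2), and its wild-type vehicle levels of -1.40, 0.85 and 1.28 overlapped its wild-type IIAEK levels of 1.69, 0.02 and 1.41.

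Carboxylesterases split ester bonds of drugs and lipids in the endoplasmic reticulum of hepatocytes. All 13 tested members had a lower change in the knockout than in wild type, with a median difference of -0.79, and 2 had an unadjusted p under 0.05, against 0.663% of all genes in that direction. IIAEK levels were higher than vehicle for 13 of 13 members in wild type (median change 1.09) and for 10 of 13 in the knockout (median 0.64). The slides did not agree in direction: the median was 0.99 on slide 1 and -1.17 on slide 2, where 13 of 13 were lower. Without knockout vehicle 2 the median was -0.08. Ces2a stood at 3.27, 3.05 and 2.96 on the wild-type vehicle arrays and at 5.09, 4.89 and 4.72 with IIAEK. Its knockout vehicle levels were 2.69, 4.55 and 3.31 and its knockout IIAEK levels 3.96, 3.46 and 3.65. The wild-type groups were far apart, 3.49-fold in their means, and the knockout groups overlapped because knockout vehicle 2 was above all 3 IIAEK arrays. The difference of Ces2a was -1.63 (SE 0.53, unadjusted p = 0.0107), with -0.54 on slide 1 and -2.17 on slide 2. Ces1g was 1.92-fold higher with IIAEK in wild type and 1.02-fold lower in the knockout. Its difference was -0.96 (SE 0.27, unadjusted p = 0.00415), with -0.67 on slide 1 and -1.11 on slide 2. Ces1d, a triglyceride hydrolase of liver, had a difference of -1.50 (SE 0.95) that was 1.13 on slide 1 and -2.82 on slide 2. Ces2c had one of -0.96 (SE 0.58).

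**Figure D2:**
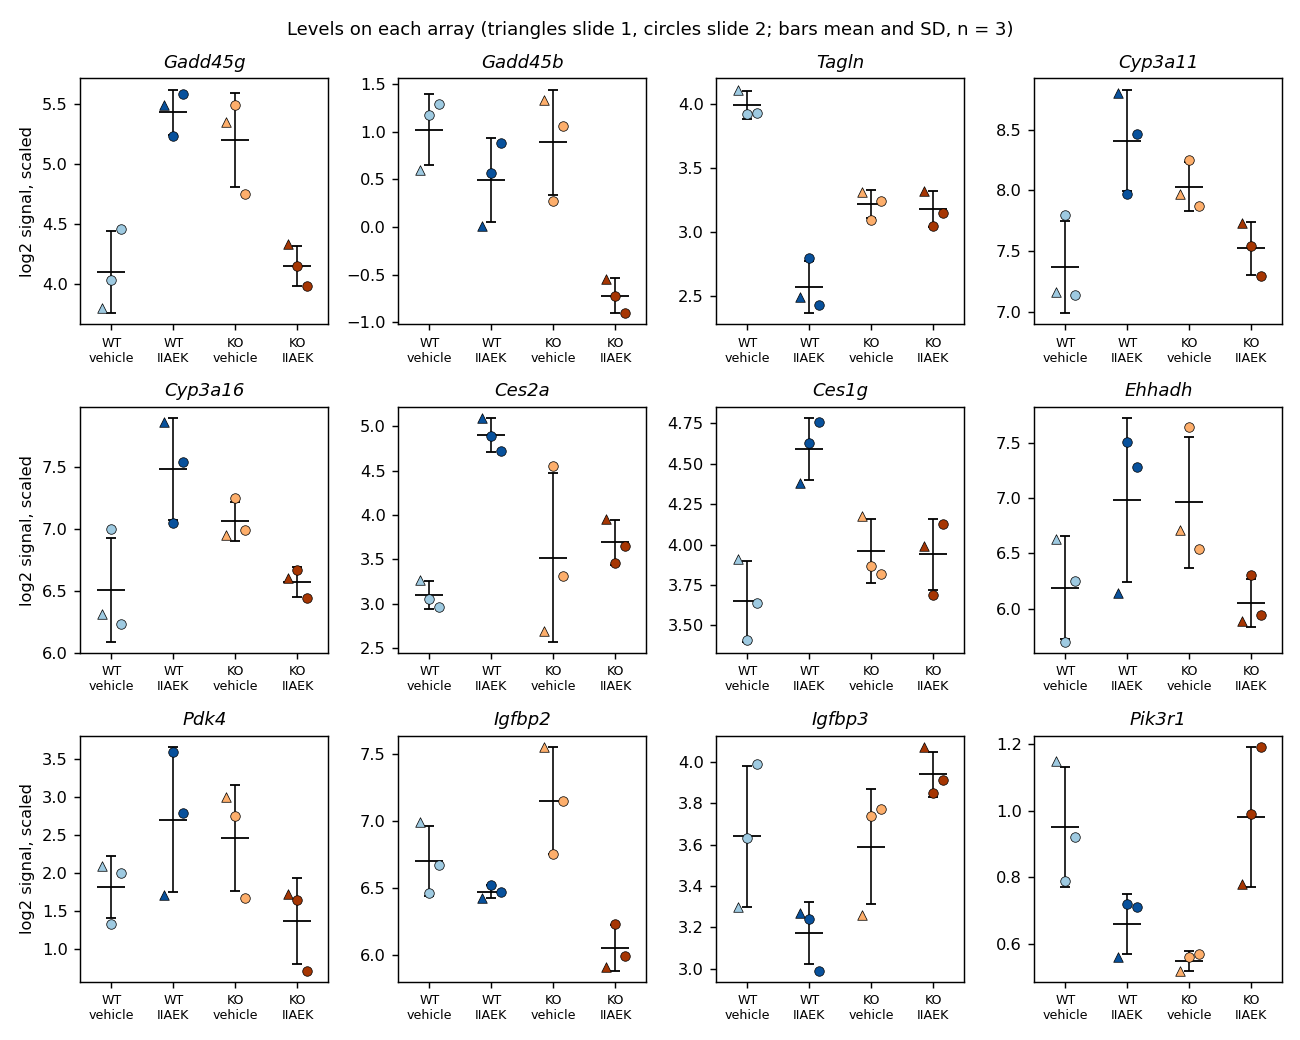
Levels of 12 genes on each array (log2 signal with the array's 75th percentile at 0) are plotted by group, with triangles for slide 1, circles for slide 2 and bars for the mean and SD of 3 arrays. In the Gadd45g panel the wild-type IIAEK arrays (5.23 to 5.58) lie above the wild-type vehicle arrays (3.80 to 4.46), and the knockout IIAEK arrays (3.98 to 4.33) below the knockout vehicle arrays (4.75 to 5.49). In the Tagln panel only the wild-type groups are apart.

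Fatty acid oxidation genes under PPARalpha, the receptor that drives the hepatic response to fasting, had lower changes in the knockout for 29 of 33 members, with a median difference of -0.50. The median change with IIAEK was 0.56 in wild type and 0.06 in the knockout, and 11 members were higher with IIAEK in wild type and lower in the knockout by their means. Of the 33, 5 had an unadjusted p under 0.05, all with the knockout lower, against 0.663% of all genes. The median was 0.33 on slide 1, with 10 of 33 lower, and -0.91 on slide 2, with 32 of 33 lower. The list was thus lower on slide 2 and not on slide 1. Leaving out the 4 outlying vehicle arrays gave -0.33, with 25 of 33 lower. The median was -0.79 without wild-type vehicle 1 and -0.29 without wild-type vehicle 2.

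Ehhadh, the bifunctional enzyme of peroxisomal beta-oxidation, stood at 6.63, 5.70 and 6.25 in wild type with vehicle and at 6.14, 7.51 and 7.28 with IIAEK. Knockout levels were 6.71, 7.64 and 6.54 with vehicle and 5.89, 6.30 and 5.94 with IIAEK. The knockout groups did not overlap and the wild-type groups did. Its difference was -1.70 (SE 0.56, unadjusted p = 0.0115), with -0.32 on slide 1 and -2.39 on slide 2. Pdk4, a kinase that shuts pyruvate out of mitochondrial oxidation, had a difference of -1.99 (SE 0.70, unadjusted p = 0.0163), and its groups overlapped in both genotypes. Its slide values were -0.88 and -2.55. Acot1 and Acot2 encode the cytosolic and mitochondrial acyl-CoA thioesterases. Acot1 had a difference of -1.84 (SE 0.76), which was 0.08 on slide 1 and -2.81 on slide 2. Acot2 had one of -1.28 (SE 0.54), with -1.45 on slide 1 and -1.19 on slide 2, and it was 2.71-fold lower with IIAEK in the knockout, where the groups did not overlap. Cpt1b, the muscle form of a carnitine palmitoyltransferase, is not a member of the list. In wild type it stood at -1.20, -2.16 and -1.57 with vehicle and at -1.07, -0.65 and -1.0 with IIAEK. Knockout levels were -0.93, -0.63 and -1.40 with vehicle and -1.49, -1.42 and -1.66 with IIAEK. Neither genotype showed overlap, and the difference was -1.27 (SE 0.37, unadjusted p = 0.00569), with -0.68 and -1.56 on the slides.

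Tagln gave the smallest p-value among genes with a higher change in the knockout. It encodes transgelin, a protein that binds actin filaments in contractile cells such as smooth muscle. Its wild-type vehicle levels were 4.11, 3.92 and 3.93 and its wild-type IIAEK levels 2.49, 2.80 and 2.43. The knockout levels were 3.31, 3.09 and 3.24 with vehicle and 3.32, 3.05 and 3.15 with IIAEK. Both knockout groups lay between the wild-type groups and overlapped each other. IIAEK levels were 2.67-fold lower in wild type and 1.03-fold lower in the knockout. The difference was 1.37 (SE 0.21, 95% interval 0.91 to 1.84, unadjusted p = 4.69e-05, adjusted p = 0.619 in limma). It was 1.63 on slide 1 and 1.25 on slide 2, and 1.30 to 1.49 with each array left out in turn.

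The other smooth muscle markers did not follow Tagln closely. Of the 13 tested, 11 had a higher change in the knockout, but the median was 0.09, and Tagln was the only member with an unadjusted p under 0.05, against 0.902% of all genes in that direction. Under scaling to each array's median the list's median was -0.03. Cnn1, calponin, had a difference of 1.36 (SE 0.76), with 1 of its 3 wild-type IIAEK arrays below the background threshold. Des, desmin, had one of 0.29 (SE 0.37) and Mylk, the myosin light chain kinase, one of 0.17 (SE 0.25). In whole-liver RNA, fewer cells of a type and less RNA per cell cannot be told apart.

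Extracellular matrix genes are the collagens and their crosslinking enzymes made by stellate cells and fibroblasts. Their means were lower with IIAEK for 31 of 32 members in wild type and 30 of 32 in the knockout. The median changes were -1.23 and -0.74. The list's median level, against its mean over the arrays, was 0.49 to 1.27 on the 4 outlying vehicle arrays. On wild-type vehicle 1 it was -0.81, near the wild-type IIAEK arrays (-0.93, -0.84 and -1.05). On knockout vehicle 2 it was -0.13, within the range of the knockout IIAEK arrays (-0.46 to 0.44). The difference between genotypes was positive for 30 of 32 members with a median of 0.40, and none had an unadjusted p under 0.05. The slides gave opposite signs, -1.18 with 31 of 32 lower on slide 1 and 1.17 with 30 of 32 higher on slide 2. The first principal component has the same pair of signs on the slides, and its part in this list was not tested. Leaving out the 4 outlying vehicle arrays gave a median of 0.06, with 18 of 32 higher. Leaving out wild-type vehicle 3 gave 0.03, and leaving out wild-type vehicle 1 gave 0.90. Ccn2, connective tissue growth factor, stood at 2.70, 3.85 and 3.70 with vehicle and at 0.92, 1.31 and 0.40 with IIAEK in wild type, without overlap and 5.82-fold apart. In the knockout its levels were 3.99, 1.31 and 2.61 with vehicle and 1.53, 0.87 and 1.10 with IIAEK, which overlapped. The difference was 1.07 (SE 0.81), with -0.68 on slide 1 and 1.95 on slide 2. Lox, which crosslinks collagen and elastin and was above background on 2 of 3 wild-type IIAEK arrays, had a difference of 1.43 (SE 1.36), Eln, elastin, 0.48 (SE 0.46), and Timp3, a metalloproteinase inhibitor, 0.28 (SE 0.22). On slide 1 all of these were negative (-1.22, -0.16 and -0.32).

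The named genes with the smallest p-values, up to 10 in each direction and 19 in all, were taken among genes with a symbol that were well above background on all 12 arrays. None passed the adjusted threshold. All 19 had the same direction on slide 1 and slide 2, against 31.9% of all genes. Both slides enter the p-value, so this count is a description of the selected genes. On the lower side, beyond those above, were Gm14488 (-1.37), Rnf144a, a ubiquitin ligase (-1.08), Alg14, a subunit of an enzyme of N-glycan assembly (-0.68), and 3930402G23Rik (-2.65). Alg14 stood at 2.72, 2.81 and 2.63 with vehicle and at 3.21, 3.25 and 3.25 with IIAEK in wild type. Its knockout levels were 2.84, 3.24 and 2.69 with vehicle and 2.76, 2.74 and 2.78 with IIAEK, so that only the wild-type groups were apart.

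On the higher side, Lncbate1, a long non-coding RNA known from brown fat, had a difference of 1.57 (SE 0.37, unadjusted p = 0.00143). It was 2.24-fold lower with IIAEK in wild type, without overlap, and 1.33-fold higher in the knockout, with overlap. Pik3r1, the regulatory p85 subunit of phosphoinositide 3-kinase, stood at 1.15, 0.79 and 0.92 in wild type with vehicle and at 0.56, 0.72 and 0.71 with IIAEK. In the knockout it stood at 0.52, 0.56 and 0.57 with vehicle and at 0.78, 0.99 and 1.19 with IIAEK. It was thus lower with IIAEK in wild type and higher in the knockout without overlap, and the difference was 0.73 (SE 0.21, unadjusted p = 0.00565), with 0.85 and 0.67 on the slides. Zmynd10, a factor of ciliary dynein assembly, crossed in the same way at a low signal, with a difference of 1.40 (SE 0.38) that was 0.29 on slide 1 and 1.96 on slide 2. Extl1, an exostosin-like sugar transferase, was higher with IIAEK in the knockout without overlap (2.57-fold) and overlapped in wild type, a difference of 1.23 (SE 0.36). Nos1ap, an adaptor of neuronal nitric oxide synthase, had a difference of 0.95, 1700112J16Rik one of 0.64 and Gm36855 one of 0.77. The difference of 9530053A07Rik, 2.75 (SE 0.83), came with wild-type vehicle levels of -1.48, 0.48 and -2.20 and levels of -4.03 to -2.54 on all other arrays. Wild-type vehicle was also the group with the highest levels of small intestine markers, given below, and their part in this value was not tested.

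**Figure D3:**
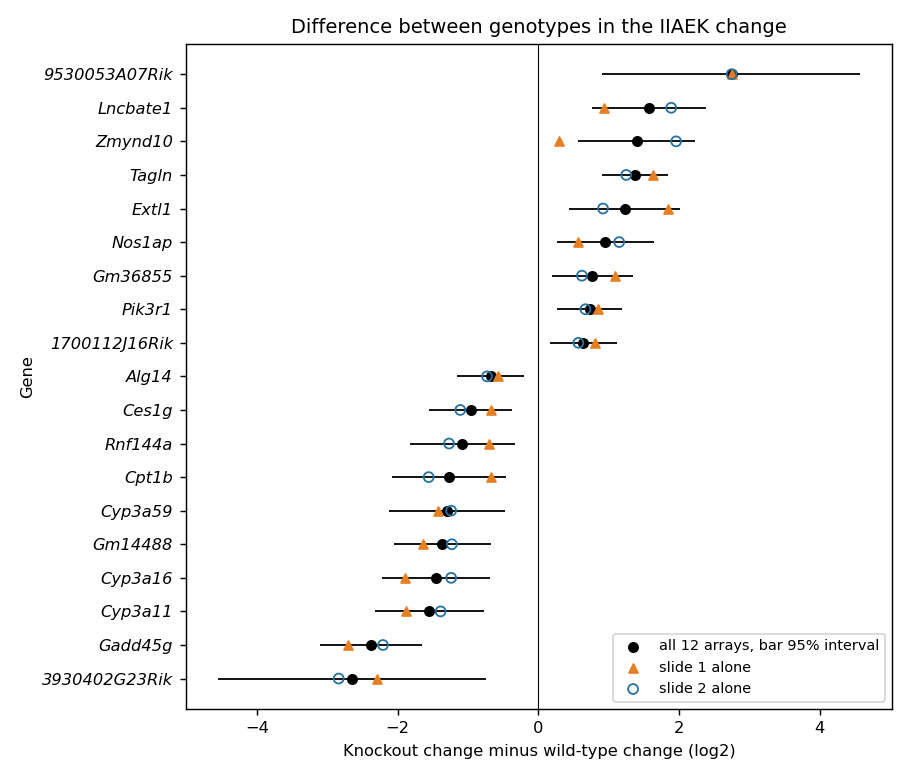
The knockout change minus the wild-type change (log2) is plotted for the 19 named genes of smallest p-value, with black points for all 12 arrays, bars for 95% intervals, triangles for slide 1 alone and open circles for slide 2 alone. All 19 have both slide values on the same side of 0, and none passed the adjusted threshold. Gadd45g lies at -2.38 and Tagln at 1.37.

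Cholesterol and bile acid genes are those the peptide is best known for. Cyp7a1, which sets the pace of the classical route from cholesterol to bile acids, had one of the largest estimates, 4.89 (SE 1.79, 95% interval 0.95 to 8.84, unadjusted p = 0.0197, adjusted p = 1.0 in limma). Its wild-type vehicle levels were -0.07, 0.84 and -2.0, and its wild-type IIAEK levels -5.66, -3.66 and -7.14, of which only 1 of 3 was well above background. Its knockout levels were -0.03, -5.12 and -2.95 with vehicle and -4.07, -2.13 and -2.47 with IIAEK, all above background. The wild-type groups were apart and the knockout groups overlapped, but the size of the wild-type change is not measured on 2 of 3 IIAEK arrays. With normexp background correction the difference was 1.94, and it was 1.55 on slide 1 and 6.56 on slide 2. For Cyp8b1, the sterol 12-hydroxylase, all groups but knockout IIAEK had only 1 of 3 arrays above background, so no difference is read from it. Cyp27a1, which starts the acidic pathway, had a difference of -0.30 (SE 0.49) and Cyp7b1, its partner, one of 0.08 (SE 1.48). Over the 16 tested bile acid synthesis genes the median difference was -0.02, with 7 higher and 9 lower, and it was 0.80 on slide 1 and -0.20 on slide 2. Cyp27a1 likewise was 0.84 and -0.87.

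Bile acid transport and FXR genes had a median difference of -0.02 over 17 members, 8 higher and 9 lower, which was 0.49 on slide 1 and -0.28 on slide 2. Abcb11, the bile salt export pump, stood at 7.20, 6.99 and 6.77 with vehicle and at 7.31, 7.23 and 7.36 with IIAEK in wild type. Knockout arrays gave 7.14, 7.36 and 7.16 with vehicle and 7.20, 6.81 and 7.06 with IIAEK. The difference was -0.51 (SE 0.22, unadjusted p = 0.0431), but it was -0.05 on slide 1 and -0.74 on slide 2. Nr5a2, a nuclear receptor that drives Cyp7a1, had a difference of 0.87 (SE 0.39, unadjusted p = 0.0492), with 0.83 and 0.89 on the slides and 0.53 without wild-type IIAEK 2, and was higher with IIAEK in the knockout without overlap. The FXR gene Nr1h4 had a difference of 0.02 (SE 0.51, 95% interval -1.10 to 1.14), and Nr0b2, its target SHP, one of -0.41 (SE 0.42) that was 0.11 on slide 1. The export pump Abcc3 had one of -0.53 (SE 0.31) and the flippase Atp8b1 one of 0.29 (SE 0.19).

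Among sterol transporters, the intervals of Abcg5 and Abca1 were narrower than the typical gene's and those of Abcg8, Soat2 and Lipc were wider. Abcg5, which with Abcg8 sends cholesterol into bile, stood at 7.75, 7.61 and 7.61 with vehicle and at 7.85, 7.57 and 7.26 with IIAEK in wild type. Knockout arrays gave 7.28, 7.60 and 7.40 with vehicle and 7.71, 7.61 and 7.81 with IIAEK. The knockout groups were apart by a small step and the wild-type groups were not, and the difference was 0.38 (SE 0.24, 95% interval -0.14 to 0.90). Abcg8 had a difference of 0.34 (SE 0.57, 95% interval -0.91 to 1.60), with 1.54 on slide 1 and -0.26 on slide 2. Abca1, which loads cholesterol onto HDL, had one of 0.26 (SE 0.29, 95% interval -0.39 to 0.90). The cholesterol esterifying enzyme Soat2 had one of -0.49 (SE 0.50) and hepatic lipase, Lipc, one of -0.49 (SE 0.56), and both were positive on slide 1 (0.89 and 0.55). Over 17 tested members of this list the median was 0.06 (0.48 on slide 1 and -0.16 on slide 2), with 11 higher and 6 lower, and none had an unadjusted p under 0.05. Npc1l1, the sterol uptake carrier, was above background on 1 array and was not tested.

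Cholesterol synthesis genes had a median difference of -0.17, with 16 of 24 lower. The sign was not stable: the median was 0.62 on slide 1, with 17 of 24 higher, -0.62 on slide 2, and 0.08 without knockout vehicle 2. Of the 24, 1 had an unadjusted p under 0.05, with the knockout change higher, against 0.902% of all genes in that direction. That gene is not named here. Insig2, which holds the SREBP system in the endoplasmic reticulum, had a difference of -0.56 (SE 0.33), Pmvk one of -0.59 (SE 0.49) and Hsd17b7 one of -0.46 (SE 0.40). Lipogenic genes had a median difference of -0.03 with 15 of 26 lower, among them Acacb (-1.59, SE 1.08), Me1 (-1.20, SE 1.18), Pnpla3 (-0.84, SE 0.59, above background on 1 of 3 arrays in each vehicle group) and, on the higher side, Dgat2 (0.38, SE 0.35). The 2 probes of Acacb differed in direction, with -1.59 for the brighter and 0.44 for the other. Both genotypes had higher mean lipogenic levels with IIAEK, by medians of 0.71 and 0.61. The list's median level, against its mean over the arrays, was -0.94 to -0.39 on the 4 outlying vehicle arrays. On wild-type vehicle 1 it was 0.19, within the range of the wild-type IIAEK arrays (0.05 to 0.4). On knockout vehicle 2 it was 0.46, within that of the knockout IIAEK arrays (0.28 to 0.61). The median difference of the lipogenic list was 1.13 on slide 1 and -0.57 on slide 2.

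Clock genes oscillate over the day, and the hour of liver collection is not in the labels used here. Of the 21 tested, 15 had a higher change in the knockout, with a median difference of 0.27, and 2 had an unadjusted p under 0.05, both in that direction, against 0.902% of all genes. The median was -0.08, with 9 higher and 12 lower, when the 4 outlying vehicle arrays were left out, and 0.09 without knockout IIAEK 3. Ciart, a repressor within the clock whose promoter is shown above, stood at -3.63, -0.98 and -2.01 in wild type with vehicle and at -4.71, -5.00 and -4.75 with IIAEK, where 1 of 3 arrays was above background. In the knockout it stood at -2.45, -3.38 and -3.73 with vehicle and at -3.51, -3.01 and -0.73 with IIAEK. Only the wild-type groups were apart, and the size of the estimate, 3.39 (SE 1.06, unadjusted p = 0.00888), rests on signals near background. It was 0.03 on slide 1 and 5.07 on slide 2. Usp2, a deubiquitinase of the clock output, had a difference of 1.16 (SE 0.47, unadjusted p = 0.0306), with -0.24 on slide 1 and 1.86 on slide 2. The output factors Tef and Dbp had differences of 1.11 (SE 0.51) and 2.96 (SE 1.43). Dbp was -0.13 when the 4 outlying vehicle arrays were left out, which keeps 1 vehicle array per genotype.

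In the IGF axis, which carries growth hormone and insulin signals from the liver, 11 of 15 tested genes had a higher change in the knockout, with a median of 0.22, which was -0.02 on slide 2 and -0.08 without wild-type vehicle 1. Igfbp2, a binding protein that restrains IGF, stood at 6.99, 6.46 and 6.67 with vehicle and at 6.42, 6.52 and 6.47 with IIAEK in wild type. In the knockout it stood at 7.55, 6.75 and 7.15 with vehicle and at 5.91, 6.23 and 5.99 with IIAEK, 2.15-fold lower and without overlap. Its difference was -0.87 (SE 0.30, unadjusted p = 0.0141), with -1.07 and -0.77 on the slides, and -0.19 when the 4 outlying vehicle arrays were left out. Igfbp3, the main carrier of IGF in plasma, crossed in the other direction. It stood at 3.30, 3.63 and 3.99 with vehicle and at 3.27, 3.24 and 2.99 with IIAEK in wild type, and at 3.26, 3.74 and 3.77 with vehicle and at 4.07, 3.85 and 3.91 with IIAEK in the knockout. Its difference was 0.83 (SE 0.29, unadjusted p = 0.015), with 0.84 and 0.82 on the slides, and 0.34 when the 4 outlying vehicle arrays were left out. Igfbp5 and Igfbp6 each had a difference of 1.30, with SEs of 0.64 and 0.69, that was negative on slide 1 (-0.42 and -0.23).

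Immediate early genes, the transcription factors and phosphatases that respond within minutes to stimuli and to tissue handling, were lower with IIAEK for 26 of 29 members in wild type and 26 of 29 in the knockout. Their median change was -0.67 in wild type and -0.86 in the knockout, and the median difference was 0.14, with 18 higher and 11 lower. It was -1.08 on slide 1, 0.56 on slide 2 and -0.21 without knockout vehicle 2. Gadd45g and Gadd45b were the 2 members with an unadjusted p under 0.05, both lower, against 0.663% of all genes. Gadd45g alone among the 29 was higher with IIAEK in wild type and lower in the knockout by its means. Dusp1, a MAP kinase phosphatase, had a difference of -0.64 (SE 0.38), and Maff, a small Maf factor, one of -0.75 (SE 0.47). In the list of NF-kappaB targets and cytokines 18 of 26 members were higher, with a median of 0.24 that was -0.61 on slide 1, 0.61 on slide 2 and -0.15 without knockout vehicle 2. The chemokines Ccl3 (1.75, SE 1.31), Ccl4 (1.46, SE 1.11) and Ccl5 (1.03, SE 0.81) were on the higher side. Il6 had an unadjusted p of 0.00844 with levels of -6.85, -6.72 and -6.32 in the knockout IIAEK group, none of them well above background, so no fold is given. Rgs3, a regulator of G protein signalling, was higher with IIAEK without overlap in both genotypes, 2.44-fold in wild type and 1.63-fold in the knockout. Its difference was -0.58 (SE 0.24, unadjusted p = 0.0342), with -0.19 and -0.78 on the slides, and its 4 probes gave -1.06 to -0.18. Alpl had a difference of -0.48 (SE 0.39, 95% interval -1.34 to 0.38), which was -1.50 on slide 1 and 0.04 on slide 2.

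Red blood cell transcripts, which mark blood left in the tissue, had a lower change in the knockout for 6 of 7 tested genes, with a median of -1.49. Hba-a1 stood at 7.31, 8.58 and 8.94 with vehicle and at 8.25, 7.75 and 9.14 with IIAEK in wild type. Knockout arrays gave 8.95, 7.93 and 8.70 with vehicle and 7.32, 6.99 and 7.29 with IIAEK. The knockout IIAEK arrays were the lowest group and did not overlap the knockout vehicle arrays, and the difference was -1.43 (SE 0.64, unadjusted p = 0.0474), which was -0.95 without wild-type vehicle 1. Hba-a2 gave -1.42, Hbb-bt -1.74 and Hbb-b2 -1.49, and these globin genes are near copies of each other, so they are not independent. The list's median was -2.97 on slide 1 and -0.83 on slide 2, and -0.87 without wild-type vehicle 1. Whether the amount of blood in the samples bears on other genes was not tested.

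Genes of DNA replication had a higher change in the knockout for 26 of 26 tested members, all by small amounts (0.07 to 0.65, median 0.27), and none had an unadjusted p under 0.05. Leaving out the 4 outlying vehicle arrays gave a median of -0.43, with 19 of 26 lower, and leaving out knockout vehicle 1 gave 0.08. Gins1 (0.62, SE 0.32), Mcm3 (0.64, SE 0.49) and Cdc6 (0.36, SE 0.24) encode parts of the replication machinery, and Cdc45 (0.65, SE 0.48) gave -0.17 when its probes were averaged. Mitosis genes had a lower change for 23 of 25, with a median of -0.33, which was -2.29 without the same 4 arrays and 0.79 without wild-type vehicle 1 and 2, and 0.46 without wild-type vehicle 1 alone. On wild-type vehicle 1 the median level of the mitosis list was -2.45 against its mean over the arrays, and on the other 11 arrays -1.01 to 1.19.

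Transcripts of neighbouring organs were highest in wild-type vehicle arrays, which enter every difference. The 15 tested pancreas markers had a median level of 2.55 on wild-type vehicle 1, against -0.52 to 0.37 on the other 11 arrays. The 12 tested small intestine markers had a median of 2.25 on wild-type vehicle 2 and 0.58 and 0.61 on wild-type vehicle 1 and 3, against -0.90 to 0.27 on the other 9. Their median differences were 0.56 for pancreas (14 of 15 higher) and 1.52 for small intestine (9 of 12 higher). Without wild-type vehicle 1 and 2 these medians were -0.56 and 0.50. The differences of Gadd45g, Tagln and Cyp3a11 without those arrays were -2.01, 1.32 and -1.78, and with the 4 outlying vehicle arrays left out -2.97, 1.62 and -1.98.

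**Figure D4:**
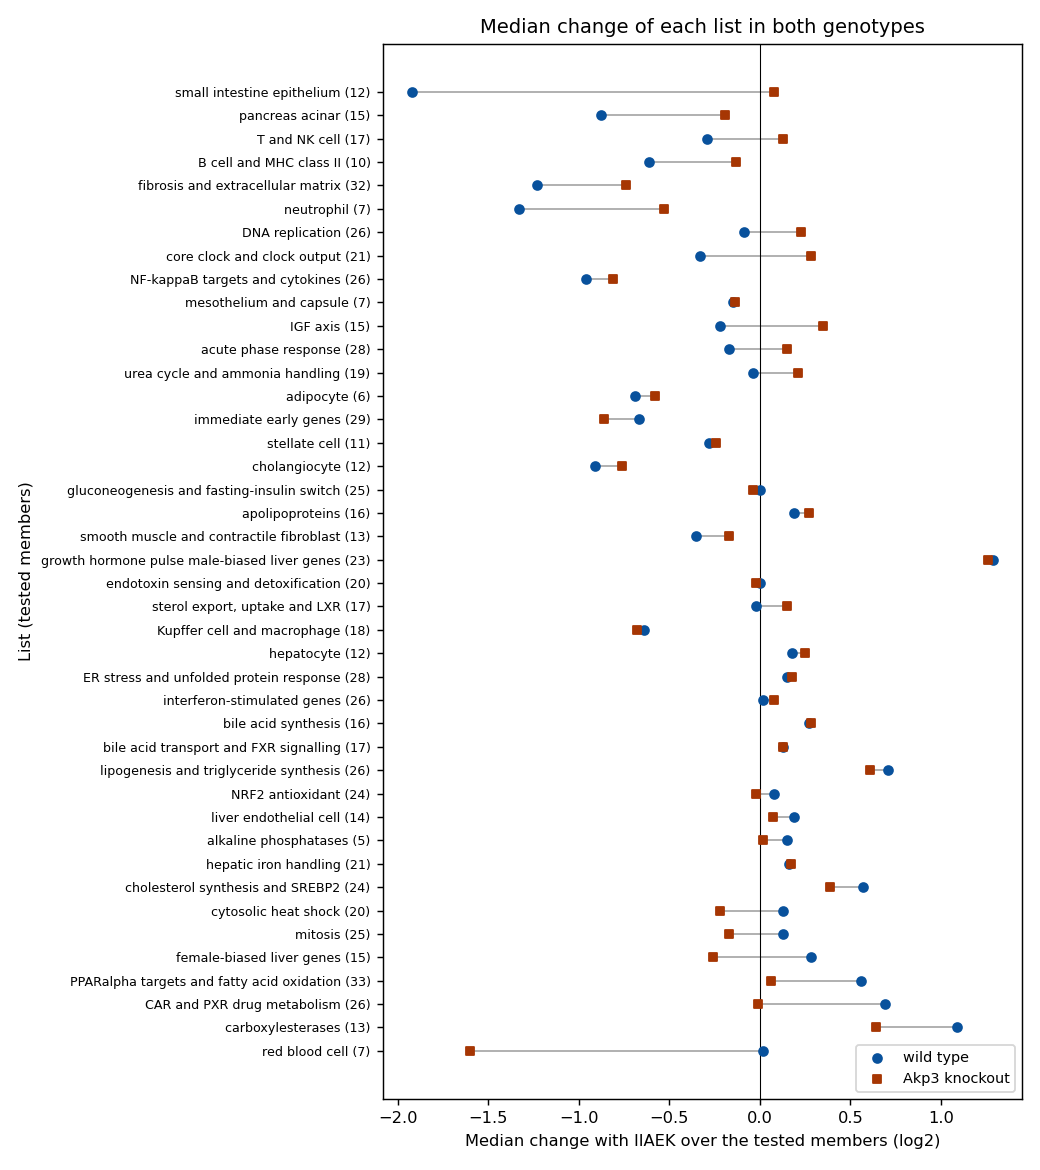
The median change with IIAEK (log2) over the tested members of each of 42 lists is plotted for wild type (circles) and the Akp3 knockout (squares), with the number of members in brackets and lists ordered by their median difference. The lists at the bottom, red blood cell, carboxylesterases, CAR and PXR, and PPARalpha, have lower changes in the knockout. Extracellular matrix genes have negative median changes in both genotypes (-1.23 and -0.74). Their median levels on wild-type vehicle 1 (-0.81) and knockout vehicle 2 (-0.13) were near those of the IIAEK arrays.

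**Figure D5:**
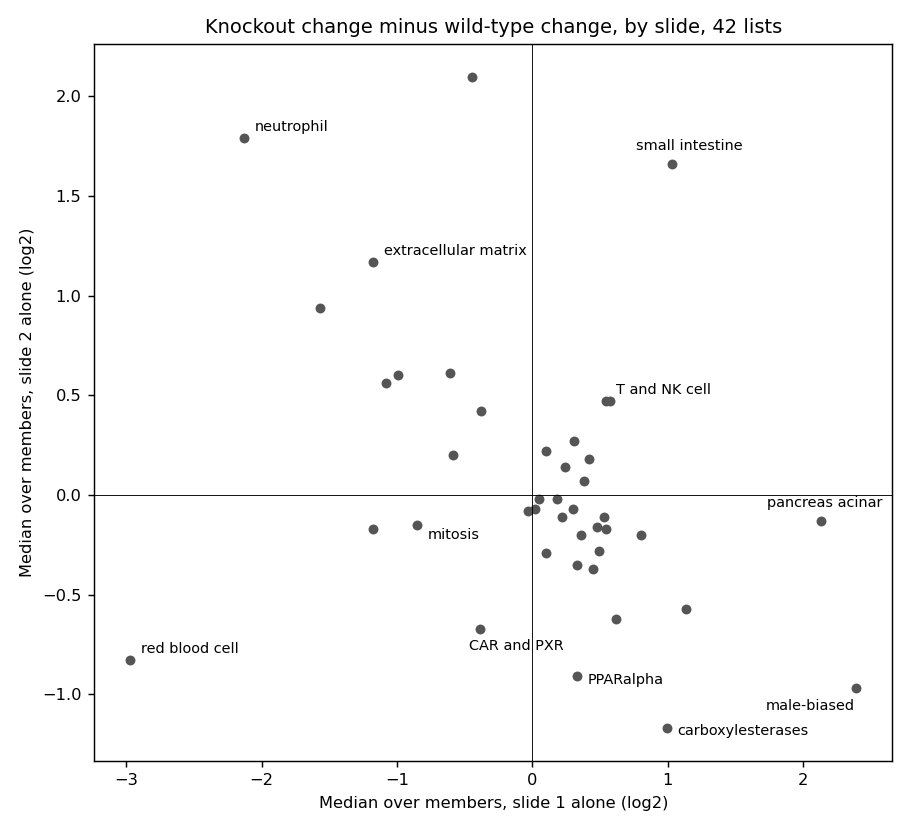
Each point is the median knockout-minus-wild-type difference (log2) of 1 of 42 lists, from slide 1 alone (4 arrays) on the horizontal axis and slide 2 alone (8 arrays) on the vertical axis. CAR and PXR genes lie below 0 on both slides (-0.39 and -0.67). Extracellular matrix genes (-1.18 and 1.17) and carboxylesterases (0.99 and -1.17) change sign between slides.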

How the data were processed

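Cy3-labelled liver RNA was hybridised to single-colour Agilent arrays, 1 array per sample, and read with Feature Extraction, per the file headers. The authors deposited, for each spot, the background-subtracted signal intensity, its median and local background intensity and flags that mark spots above background, saturated or non-uniform. The deposited series table holds log2 values on the same scale, centred for each probe with direction and reference unstated (its column medians run from -0.154 to 0.171), and served as an alternative.

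From these files log2 intensity was taken minus each array's 75th percentile. Spots of a probe were averaged, and non-uniform spots and controls were left out, which left 56588 probes, 32983 of them with a gene symbol (22906 symbols). A gene is its brightest probe, tested if every array of 1 or more groups showed that probe well above background. Symbols come from matching the array's accessions to RefSeq transcripts (GRCm38.p6); other probes keep their accession. limma 3.58.1 in R 4.3.3 fitted 1 mean per group over 12 arrays (8 residual and 2.73 prior degrees of freedom), with a two-sided test of the difference of differences and Benjamini-Hochberg adjustment over 26397 genes. The number of arrays limits the precision. The code was tested on simulated data. The comparison and the gene lists were chosen with earlier results of these data known, so lists are given as counts and medians.

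Named genes are 22 genes of cholesterol, bile acid, phosphatase, stress and drug metabolism, the 10 per direction with the smallest unadjusted p that have a symbol and signal on all 12 arrays (since fewer passed), and up to 4 genes of smallest p in each of 16 lists; 3 genes of this rule are not reported here. Alternatives changed the background correction (normexp, offset 50), scaling, source, filter, probe rule, slide and replicate blocks, variance model and array weights, and left out each array. Labels of the IIAEK samples give the dosing time once in weeks; the 14 days of the titles were used.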

Additional observations from a re-analysis of the deposited data

Results flagged for a closer look

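The 9 genes below, all named in the report, had vehicle and IIAEK levels that did not overlap in either genotype and differed in opposite directions. The difference itself was tested in limma and none passed the adjusted threshold. Lower in the knockout and higher in wild type with IIAEK were Gadd45g, with a difference of -2.38, Cyp3a11 with -1.55, Cyp3a16 with -1.46, Gm14488 with -1.37, Cyp3a59 with -1.30 and Cpt1b with -1.27. Higher in the knockout and lower in wild type were Zmynd10 with 1.40, Igfbp3 with 0.83 and Pik3r1 with 0.73. Over all genes tested this pattern was seen for 20 genes (0.0758%) and 14 genes (0.053%) in these directions. These counts were not tested against the number that arises with no difference. The Cyp3a genes are close copies of each other and are not independent.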

How the results depend on the processing

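The count of genes past the adjusted threshold in limma was 0 in the reported analysis. With each of the 12 arrays left out in turn it was 0 to 1, the 1 being a probe known by its transcript ID ENSMUST00000188463 (adjusted p = 0.0172 in limma) without knockout vehicle 2. The same probe was called without wild-type vehicle 1 and knockout vehicle 2 (1 gene, adjusted p = 0.0229 in limma), and XM_006543565 without the 4 outlying vehicle arrays (1 gene, adjusted p = 0.0241 in limma), both choices made after seeing the data, as was leaving out wild-type vehicle 1 and 2. The other alternatives that allow a test gave 0; slide 1 alone, with 1 array per group, allows none. The adjusted p of Gadd45g and Tagln in limma ran from 0.1 to 1.0 over the alternatives. Replicate numbers are shared across groups, and levels of same-numbered arrays correlated between -0.547 and 0.646 after removal of group means, so the numbers were not taken to pair the mice. The fit with the replicate block called 0 genes (411 at an unadjusted p under 0.05), and with the slide as a block 0 (430). On slide 2 alone 0 genes passed with 1172 at an unadjusted p under 0.05, and with array weights 0 with 651, where wild-type vehicle 1 and knockout vehicle 2 had the lowest weights (0.20 and 0.37).

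Of the 84 named genes, 74 kept their direction in every alternative other than slide 1 alone, where 24 had the opposite one. On slide 2 alone the direction turned for Alpl (0.04), Cyp7b1 (-1.29), Abcg8 (-0.26), Nr1h4 (-0.52), Mylk (-0.16) and Dgat2 (-0.11). Without wild-type vehicle 1 and 2 they were Alpl (0.02), Cyp7b1 (-1.23) and Nr1h4 (-0.70). Without the 4 outlying vehicle arrays they were Cyp7b1 (-0.26), Gadd45a (-0.14) and Dbp (-0.13), and without wild-type vehicle 1 and knockout vehicle 2 Nr1h4 (-0.07). Scaling to each array's median, which moved the median of all genes to -0.113, turned Cyp7b1 (-0.04), Nr1h4 (-0.10) and 10 of 42 list medians, which lay between 0.05 and 0.11; this shift is shared by all genes. Array weights turned Nr1h4 (-0.15) and averaging probes Cdc45 (-0.17). With 1 array left out, the ranges crossed 0 for Cyp7b1 (-0.96 to 1.28), Nr1h4 (-0.39 to 0.38), Abcg8 (-0.16 to 0.75), Gadd45a (-0.21 to 0.89) and Cyp2c70 (-0.38 to 0.06). The cause was not tested. Among genes with an unadjusted p under 0.05, leaving out the 4 outlying vehicle arrays gave Ces1g -0.62, Rnf144a -0.59, Ciart 2.16, Nos1ap 1.53, Ces2a -2.49, Cyp2c55 -3.90 and Cyp7a1 7.65. Of 1176 list medians under alternatives, 105 moved by more than their spread between arrays. Signal near background limits Cyp7a1, Cyp8b1, Ciart and Il6.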

Other observations

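Several groups of genes not described above differed in their medians without any member past the adjusted threshold in limma. Cytosolic heat shock genes, the chaperones that hold proteins in shape, had a lower change in the knockout for 18 of 20 tested members, with a median of -0.25. The median change with IIAEK was 0.13 in wild type and -0.22 in the knockout, and the median difference was 0.10 on slide 1, -0.29 on slide 2 and -0.12 without wild-type IIAEK 2. Hspa1l, at 0.78 on the higher side, was the only member with an unadjusted p under 0.05, against 0.902% of all genes in that direction, and was named after its value was seen. Acute phase genes had a higher change for 23 of 28 members (median 0.18, with 0.24 on slide 1, 0.14 on slide 2 and 0.09 without wild-type vehicle 2), among which Mt2, a metal-binding metallothionein, was highest at 1.65. Markers of T and NK cells had a higher change in the knockout for 15 of 17 tested members, with a median of 0.49 that was 0.54 on slide 1 and 0.47 on slide 2, but 0.08 without knockout IIAEK 2. Markers of B cells and MHC class II had a median of 0.48 (8 of 10 higher), with 0.57 and 0.47 on the slides and 0.11 without knockout vehicle 2. Their levels varied between arrays of a group: the T and NK list stood at -0.06, 0.80 and -0.53 on the knockout IIAEK arrays against its mean.

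Lists with medians near that of all genes included interferon-stimulated genes (-0.01, 13 of 26 higher), unfolded protein response genes (0.00, 15 of 28 higher), iron handling (-0.11, 9 of 21 higher), endotoxin sensing and detoxification (0.06, 12 of 20 higher) and NRF2 antioxidant genes (-0.08, 10 of 24 higher). Some of these medians moved with the arrays used. The interferon median was 0.02 and -0.07 on the slides, but 0.44 without wild-type vehicle 1 and 2, with 24 of 26 higher. The unfolded protein response median was 0.36 on slide 1 and -0.20 on slide 2, and the iron median 0.22 and -0.11. The endotoxin median was 0.05 and -0.02 on the slides, and the NRF2 median -0.03 and -0.08. Male-biased liver genes, kept up by growth hormone pulses, had higher means with IIAEK for 22 of 23 in wild type and 23 of 23 in the knockout. The median changes were 1.29 and 1.26. The list's median level, against its mean over the arrays, was -1.91 to -1.3 on the 4 outlying vehicle arrays. On wild-type vehicle 1 it was 1.18, above all wild-type IIAEK arrays (1.06, 1.06 and -0.14). On knockout vehicle 2 it was 1.2, above all knockout IIAEK arrays (0.52, 0.52 and 0.91). The list's median difference between genotypes was 0.08, with 2.39 on slide 1 and -0.97 on slide 2. For female-biased genes the median was -0.39, and 10 of 15 were lower. It was -1.18 on slide 1, -0.17 on slide 2 and 0.49 without wild-type IIAEK 3. This list shares Cyp3a16 and other members with the CAR and PXR list described above, so these lists are not independent.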
